A study of Mus musculus with 32 samples.

Results

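Synaptic vesicle and exocytosis genes were followed through allele-specific RNA sequencing of mouse brain: 77 of the 14699 autosomal genes whose pools in a region averaged 20 or more informative reads. An informative read is one that covers a base at which the strains CAST/EiJ (CAST) and C57BL/6J (B6) differ (a SNP), so that its allele can be read. The members were chosen by symbol, with earlier results of these data known. They were synaptotagmins, synapsins, syntaxins and their binding proteins, VAMPs, SNAPs, complexins and SV2 proteins. Rab3 proteins, Unc13 and Rims proteins, Nsf and the genes Napa, Napb and Napg were taken in as well. Of 86 autosomal and X-linked symbols that matched, 2 were X-linked and 7 lay below the read minimum. Of the 77, 76 passed in embryonic brain, 66 in the preoptic area and 59 in the prefrontal cortex, with 58 passing in all 3 regions and 11 in a single one. Just inside the minimum were Stxbp5l at 23.5 reads per pool in the embryo, Stxbp3b at 21.75 in the preoptic area and Stx5 at 20 in the prefrontal cortex. Just outside were Rab3il1 at 14, Snap91 at 16.5 and Rab3ip at 19.75 in the same regions. The letters of the rule also took in 8 other Rab proteins (Rab30 to Rab39) and Snap91, a clathrin adaptor. Rab3a was not analysed here.

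The groups were pools of F1 hybrid brain RNA from reciprocal crosses. F1i mice had a CAST mother and a B6 father, and F1r mice a B6 mother and a CAST father. Preoptic area (POA) and medial prefrontal cortex (PFC) were dissected at 5 weeks of age, each as 4 pools (F1i male, F1r male, F1i female, F1r female) of 8 to 10 individuals. Whole brain of embryonic day 15 (E15) gave 1 pool for F1i and 1 for F1r, each from the RNA of 4 to 5 embryos without a sex label. E15 brain of each parental strain was sequenced as well. Technical replicates of a pool had been summed, so each pool counts once, and p-values measure the spread between pools, apart from those for E15 alleles. There, with 1 pool per cross, the spread was taken from the adult pools, unless a test of read counts alone is named. Values of adult pools are given below in the order F1i male, F1r male, F1i female, F1r female, and those of E15 pools in the order F1i, F1r.

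Synaptic vesicles release transmitter when their membrane fuses with the plasma membrane. A VAMP on the vesicle and a syntaxin and a SNAP-25 type protein on the plasma membrane, together called SNAREs, zip into a bundle that drives fusion. Syntaxin-binding proteins, Unc13 and Rims proteins ready the vesicle at the active zone, synaptotagmins sense calcium, complexins hold and then release the bundle, and Nsf with the Nap proteins takes used bundles apart. In neurons these families carry both fast synaptic transmission and the release of peptides from dense-core vesicles, as in the hypothalamus.

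Examples of coding SNPs are shown for genes of the main allele and region results, and each SNP holds only a part of its gene's reads. They are 41-base stretches of coding sequence in mm9, read along the gene's strand, with the SNP base in capitals. Tokens give the B6 base, its position counted from 1 at the 5′ end of the stretch, and the CAST base.
Syt13 exon 2 of 6, C21T at chr2:92781017: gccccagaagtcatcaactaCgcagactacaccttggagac
Syt13 exon 3 of 6, C21G at chr2:92783275: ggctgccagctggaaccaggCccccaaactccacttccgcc
Syt13 exon 4 of 6, G21A at chr2:92786345: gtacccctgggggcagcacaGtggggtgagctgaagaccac
Vamp1 exon 2 of 5, A21G at chr6:125168631: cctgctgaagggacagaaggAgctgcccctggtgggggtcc
Syt2 exon 6 of 9, G21A at chr1:136640987: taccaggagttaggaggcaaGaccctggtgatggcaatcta
Sv2c exon 7 of 13, C21T at chr13:96756740: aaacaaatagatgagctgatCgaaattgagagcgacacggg
Sv2b exon 9 of 13, T21C at chr7:82281231: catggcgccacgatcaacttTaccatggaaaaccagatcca
Syt13 lies on chromosome 2 (92755255 to 92796215, plus strand), Vamp1 on chromosome 6 (125165569 to 125194561, plus strand) and Syt2 on chromosome 1 (136605877 to 136649726, plus strand). Sv2c lies on chromosome 13 (96729398 to 96902532, minus strand) and Sv2b on chromosome 7 (82259783 to 82454148, minus strand).

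Summed over the autosomal genes, the POA pools held 3509414 to 7504591 informative reads, the PFC pools 4882048 to 7335823 and the E15 pools 11233746 and 11610283. Male pools were shallower than female pools in each adult region, so sex and depth move together. Levels are given as RPM, informative reads scaled to a common library total. The members took 13477 to 14313 RPM in POA (75 listed), 17438 to 18916 in PFC (72 listed) and 6652 to 7349 in E15 (77 listed). These sums and the marker sums below use every SNP listed in a region. The SNP lists differ between regions, so the sums do not rest on the same SNPs. Markers of other cells moved with the regions as well, and their part in the results below was not tested. The summed level of the oligodendrocyte markers (5 of 6 listed in each adult region and 4 of 6 in E15) was 7776 to 8585 RPM in POA, 1291 to 4660.2 in PFC and 153 to 217 in E15, with the marker Mog listed in no region. Within PFC the F1r female pool had the most oligodendrocyte signal and the F1r male pool the least. The neuron markers (4, 5 and 6 of 8 listed) came to 2105 to 2292 in POA, 1093 to 1418 in PFC and 2021 to 3093 in E15. Choroid plexus markers summed to 1.87 to 4.27 in POA, were not listed in PFC and summed to 1893 to 2478 in E15, and neural progenitor markers to 52.4 to 74.9, 25.8 to 37.8 and 746. Astrocyte markers (6 of 6 listed) summed to 1589.8 to 1734 in POA, 1081 to 1453 in PFC and 751 to 755 in E15, and microglia markers (5 of 6) to 292 to 331, 367 to 431 and 115 to 142. Endothelium markers (5 of 5) summed to 94.0 to 109, 53.5 to 104 and 289 to 337, and the 1 of 4 blood markers listed to 133 to 158, 78.0 to 143 and 1361 to 2119.

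The first comparison asked how the vesicle machinery differs between the adult preoptic area, a hypothalamic region, and the cortex. RPM in these comparisons were scaled by the trimmed mean of M values (TMM) and counted at SNPs listed in both regions, since the SNP sets differ. Of 61 members tested, 16 were higher and 28 lower in POA than in PFC with edgeR's quasi-likelihood test at a Benjamini-Hochberg adjusted p under 0.05. Of all genes tested, 57.4% passed in either direction, 27.8% higher and 29.6% lower. The members' median difference was -0.19 on the log2 scale, against a median of -0.00 over all genes. In bulk tissue, fewer cells of a type and less RNA per cell cannot be told apart. The members did not shift as a block: within several families a paralog was higher in POA and another lower.

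The SV2 proteins, membrane proteins of synaptic vesicles that bind synaptotagmin, showed this most plainly. Sv2c had 71.9, 91.2, 84.7 and 61.8 RPM in POA pools, against 7.44, 9.98, 7.03 and 7.94 in PFC pools. Sv2b had 64.9, 54.1, 67.8 and 64.0 in POA pools, against 963, 1096, 1029.8 and 786 in PFC pools. Every POA pool was above every PFC pool for Sv2c, and every POA pool below every PFC pool for Sv2b. Sv2c was 9.58-fold higher in POA (log2 3.26 ± 0.17 SE, adjusted p = 1.53e-08, edgeR) and Sv2b 15.4-fold lower (log2 -3.94 ± 0.13, adjusted p = 3.99e-10). All 12 Sv2c SNPs shared by the regions were higher in POA and all 31 shared Sv2b SNPs lower. At the exon 7 SNP of Sv2c printed above, 123 reads were counted in POA and 14 in PFC; at the exon 9 SNP of Sv2b, 75 and 1062. Sv2a, the widely expressed member of the family, was read at 1 SNP only and had 75.2, 85.7, 83.3 and 63.2 in POA, against 22.5, 30.2, 35.2 and 47.1 in PFC (log2 1.21 ± 0.18, adjusted p = 0.000118).

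**Figure D1:**
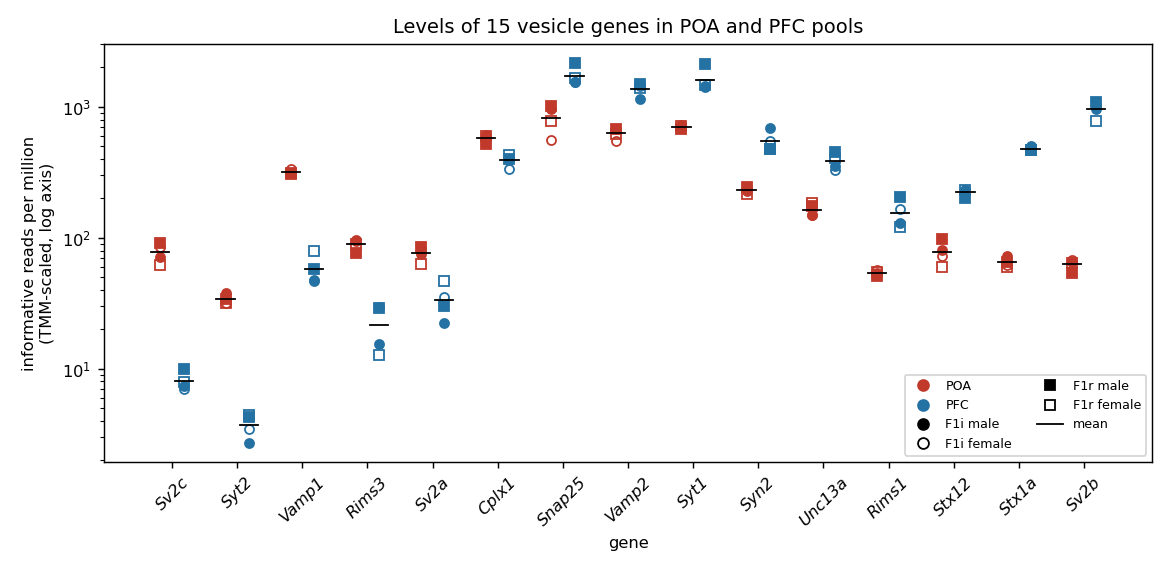
Informative reads per library total (RPM, TMM-scaled, log axis) of 15 vesicle genes in the 4 POA pools (red) and 4 PFC pools (blue), with circles for F1i, squares for F1r, filled for males, open for females and a bar at the mean. Sv2c, Syt2, Vamp1, Rims3, Sv2a and Cplx1 lie higher in POA, and the other 9 genes lower, with no overlap between the regions' pools in any of the 15. The 15 were picked from members that passed the test, as 57.4% of all genes did. The share of all genes without overlap was not counted.

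The VAMPs split in the same manner. Vamp1, the vesicle SNARE best known from fast-firing neurons and the neuromuscular junction, had 311, 313, 334 and 306 RPM in POA, against 46.7, 57.6, 48.0 and 79.0 in PFC. Vamp2, the main vesicle SNARE of forebrain synapses, had 673, 684, 554 and 619 in POA, against 1151, 1489, 1457 and 1406 in PFC. For both genes the regions' pools did not overlap. The highest PFC pool for Vamp1, F1r female, was also the PFC pool with most oligodendrocyte signal. The differences were log2 2.47 ± 0.14 for Vamp1 (adjusted p = 3.05e-08, edgeR) and -1.12 ± 0.10 for Vamp2 (adjusted p = 2.1e-06), and all 12 shared Vamp1 SNPs were higher in POA. Vamp3, a VAMP of endosomes and glia as well as neurons, was also higher in POA (log2 1.08 ± 0.13) and Vamp4, of the Golgi and endosomes, lower (log2 -0.83 ± 0.10), while Vamp8 had log2 0.24 ± 0.21.

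Among 12 synaptotagmins tested, 4 were higher in POA (Syt2, Syt3, Syt6, Syt9) and 5 lower (Syt1, Syt5, Syt11, Syt16, Syt17). Most shared SNPs went the other way for Syt11 (14 of 22 higher in POA) and Syt17 (5 of 8 higher). Syt2, a fast calcium sensor, had 31.5 to 38.0 RPM in POA, against 2.71 to 4.43 in PFC (log2 3.17 ± 0.19, adjusted p = 4.11e-08, edgeR), with 5 of 6 shared SNPs higher. Its PFC pools averaged 19.5 reads, under the minimum, so it entered this test through POA, where it is high. Syt1, the main calcium sensor of forebrain synapses, had 721, 674, 687 and 709 in POA, against 1410.1, 2120.3, 1436 and 1467 in PFC (log2 -1.19 ± 0.12, adjusted p = 3.22e-06). Neither gene's pools overlapped between regions, and the PFC F1r male pool stood above the other PFC pools for Syt1, which was lower in POA at 8 of 12 shared SNPs. Syt16, a synaptotagmin without calcium binding, had 12.5, 9.97, 7.69 and 10.5 in POA, against 60.2, 51.5, 52.1 and 43.0 in PFC (log2 -2.35 ± 0.16). Syt13 averaged 516 ± 28.8 in POA and 485 ± 52.7 in PFC (SD, n = 4 each), with overlapping pools (log2 0.09 ± 0.10, adjusted p = 0.422).

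Of the plasma membrane SNAREs, Stx1a, a syntaxin of the presynaptic membrane, had 72.5, 65.5, 62.3 and 60.0 RPM in POA, against 507, 472, 476 and 467 in PFC. That is 7.40-fold lower (log2 -2.89 ± 0.10, adjusted p = 4.32e-10, edgeR), at all 10 shared SNPs and with no overlap. Snap25, its partner in the fusion bundle, had 961, 1008, 563 and 783 in POA, against 1552, 2165, 1548 and 1649.7 in PFC (log2 -1.08 ± 0.11, adjusted p = 4.66e-06). The POA female pools were the lowest of the 8, and the PFC F1r male pool the highest. Stx3 was lower in POA too (log2 -0.45 ± 0.14, adjusted p = 0.0148), with overlapping pools, while Stx2 differed by 0.06 ± 0.15 (adjusted p = 0.756). Stxbp5, tomosyn, which binds syntaxin, averaged 43.9 ± 4.4 RPM in POA and 108 ± 20.9 RPM in PFC (SD, n = 4 each; log2 -1.28 ± 0.12).

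At the active zone, 2 of 6 genes were higher in POA and 4 lower. Rims3, a short Rim protein, had 96.6, 76.9, 95.2 and 90.4 in POA, against 15.3, 29.0, 29.6 and 12.7 in PFC (log2 2.04 ± 0.23, adjusted p = 1.05e-05, edgeR). Rims1, the full-length scaffold, had 53.7, 51.0, 56.5 and 54.9 in POA, against 131, 205, 167 and 121 in PFC (log2 -1.52 ± 0.16, adjusted p = 5.46e-06). Unc13a, the main priming factor, had 150.4, 175, 149 and 183 in POA, against 355, 453, 332 and 409 in PFC (log2 -1.23 ± 0.09, adjusted p = 2.99e-07). None of these 3 had overlapping pools. Of the shared SNPs, 6 of 8 were lower in POA for Rims1 and 30 of 36 for Unc13a. Unc13c, best known from the cerebellum, was higher in POA (log2 0.61 ± 0.20, adjusted p = 0.0216), and its PFC F1r female pool, at 14.6 RPM, lay under the other PFC pools at 29.5 to 33.8. Rims2 and Unc13b were lower in POA (log2 -0.46 ± 0.15 and -1.15 ± 0.19).

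All 4 genes of SNARE disassembly were lower in POA. Nsf, the ATPase itself, averaged 753 ± 39.2 in POA and 1109 ± 82.5 in PFC (SD, n = 4 each; log2 -0.56 ± 0.09, adjusted p = 0.000221, edgeR). Its adaptors Napa, Napb and Napg had log2 differences of -0.74 ± 0.10, -0.71 ± 0.13 and -0.27 ± 0.10. Their shared SNPs were mixed: 5 were higher and 7 lower in POA for Nsf, 2 and 3 for Napa, 22 and 35 for Napb, and 8 and 11 for Napg. The complexins went opposite ways. Cplx1 had 612, 524, 572 and 599 in POA, against 396, 403, 338 and 431 in PFC (log2 0.56 ± 0.10, adjusted p = 0.000528). Cplx2 had 1304, 1339.9, 1353 and 1402 in POA, against 1907, 1954, 1951 and 2397 in PFC (log2 -0.60 ± 0.08, adjusted p = 6.6e-05). Pools did not overlap for either, but the 20 shared Cplx2 SNPs were split, 10 higher and 10 lower in POA, whereas all 4 Cplx1 SNPs were higher.

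Syn2, a synapsin that tethers vesicles to the reserve pool, had 229, 243, 239.6 and 218 in POA, against 685, 481, 551 and 477 in PFC (log2 -1.22 ± 0.11, adjusted p = 1.15e-06, edgeR), with 4 of 8 shared SNPs lower, and Syn3 differed by 0.27 ± 0.12 (adjusted p = 0.0767). Among syntaxins of the Golgi, endosomes and endoplasmic reticulum, Stx12, an endosomal syntaxin, averaged 77.9 ± 15.6 in POA and 225 ± 16.1 in PFC (SD, n = 4 each; log2 -1.55 ± 0.14). Stx7 was lower as well (log2 -0.63 ± 0.10), Stx16 and Stx5a higher (0.87 ± 0.10 and 1.13 ± 0.24). Stx5a averaged 32.75 reads in POA and 13 in PFC, under the minimum, and so entered through the region where it is high. Of Rab3 and its regulators, Rab3gap2, a subunit of the Rab3 GTPase-activating complex, was higher in POA (log2 0.67 ± 0.12) and Rab3d lower (-0.83 ± 0.19), while Rab3b, Rab3c, Rab3gap1 and Rab3ip did not pass. Rab31 and Rab36, outside the vesicle cycle of synapses, were higher (0.43 ± 0.12 and 0.88 ± 0.12).

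Other genes of the vesicle cycle, from a list outside the naming rule, gave 10 higher and 19 lower of 36 tested. The list holds the transporters that load vesicles with transmitter. Slc17a7, the glutamate transporter of cortical neurons, had 0.95 to 1.88 RPM in POA, against 591 to 735 in PFC (log2 -8.86 ± 0.16, edgeR). At these RPM its POA pools lay under the read minimum on the shared SNPs. It therefore entered this test through PFC, where it is high, and the size of its fold rests on few POA reads. Slc32a1, the GABA transporter of inhibitory neurons, had 229.8 to 324 in POA, against 35.2 to 65.7 in PFC (log2 2.56 ± 0.13), and Slc17a6, the glutamate transporter of subcortical neurons, was also higher in POA (log2 2.21 ± 0.22).

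For 3 of the genes with the largest differences between the adult regions, the promoter is printed from RefSeq's annotation of GRCm38.p6, from 250 bases before to 50 bases after the start of transcription, along the gene's strand. Capitals mark the GC box, GGGCGG or its reverse complement, searched on both strands.
Vamp1 promoter, chr6:125215331-125215630: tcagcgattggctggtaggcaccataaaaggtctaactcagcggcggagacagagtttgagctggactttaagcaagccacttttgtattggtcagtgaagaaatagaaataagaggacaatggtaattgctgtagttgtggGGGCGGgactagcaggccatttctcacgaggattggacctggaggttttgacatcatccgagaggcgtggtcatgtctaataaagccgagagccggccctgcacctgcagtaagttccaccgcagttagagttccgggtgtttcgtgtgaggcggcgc
Sv2c promoter, chr13:96132528-96132827: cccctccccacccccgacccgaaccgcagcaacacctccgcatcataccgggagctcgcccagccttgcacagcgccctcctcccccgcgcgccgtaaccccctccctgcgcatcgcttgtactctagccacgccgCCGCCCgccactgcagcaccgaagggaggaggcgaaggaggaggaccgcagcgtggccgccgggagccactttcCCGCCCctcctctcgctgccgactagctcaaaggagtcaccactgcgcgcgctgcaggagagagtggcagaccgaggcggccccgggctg
Stx1a promoter, chr5:135023232-135023531: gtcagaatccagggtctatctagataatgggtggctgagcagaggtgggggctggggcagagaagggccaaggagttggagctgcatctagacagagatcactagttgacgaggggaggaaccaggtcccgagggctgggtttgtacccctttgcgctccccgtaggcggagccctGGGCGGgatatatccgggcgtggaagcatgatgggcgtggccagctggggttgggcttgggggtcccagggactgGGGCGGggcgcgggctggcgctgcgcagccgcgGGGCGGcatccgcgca
The GC box occurred 1 time in the Vamp1, 2 times in the Sv2c and 3 times in the Stx1a stretch. Of the 77 members, 60 were matched in that table, and 46 of them (76.7%) held a GC box, against 36.3% of all 25748 promoters, which are not limited to genes expressed in brain. The letters TGACG, part of the cyclic AMP response element, were in 17 of the 60 (28.3%, against 21.2% of all) and the E-box CACGTG in 9 (15.0%, against 7.23%). These are letter matches on both strands and say nothing on whether a factor binds.

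The second question was how the machinery of the adult regions differs from that of embryonic brain, in which few synapses have formed. Age and tissue differ together between these groups and cannot be told apart, and both comparisons use the same 2 E15 pools. Of 66 members tested in POA against E15, 31 were higher and 14 lower (64.2% of all genes passed, 31.4% higher and 32.7% lower), with a median log2 difference of 0.34 for the members and -0.03 for all genes. Of 64 tested in PFC against E15, 31 were higher and 9 lower (54.6% of all genes passed, 27.1% higher and 27.5% lower), with medians of 0.60 and -0.03. The E15 pools also held 746 RPM of neural progenitor and up to 2478 of choroid plexus signal, as given above. Among the other vesicle-cycle genes, 21 of 36 tested were higher and 7 lower in POA, and 22 of 37 were higher and 5 lower in PFC.

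Genes of the fusion machinery were among those highest in the adult regions relative to E15. Vamp1 had 321, 328, 336 and 313 RPM in POA, against 16.5 and 21.7 in E15, a 17.0-fold higher level (log2 4.09 ± 0.17, adjusted p = 1.03e-07, edgeR). On SNPs shared by PFC and E15 it had 46.7, 56.1, 50.6 and 77.7 in PFC, against 15.4 and 20.3 in E15 (log2 1.69 ± 0.23, adjusted p = 8.18e-05). The adult and embryonic pools did not overlap in either comparison. Cplx1 was 10.7-fold higher in POA than in E15 (688, 589, 640.0 and 672 against 59.8 and 61.2) and 7.36-fold higher in PFC. Snap25 had 1081, 1132, 629 and 878 in POA, against 127 and 231 in E15 (log2 2.42 ± 0.25, adjusted p = 1.94e-05), and 1561, 2159, 1555 and 1666 in PFC, against 109.8 and 207 in E15 (log2 3.50 ± 0.24, adjusted p = 6.89e-07). Nsf differed by log2 2.35 ± 0.18 in POA and 2.94 ± 0.22 in PFC, Syt12, a synaptotagmin phosphorylated at presynapses, by 3.05 ± 0.21 and 2.93 ± 0.27, and Syn2 by 1.96 ± 0.14 and 2.69 ± 0.22. Sv2a was higher as well (3.20 ± 0.41 and 2.11 ± 0.39), though its E15 level rests on 1 SNP that read 4.08 RPM in the F1i and 16.0 in the F1r pool.

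**Figure D2:**
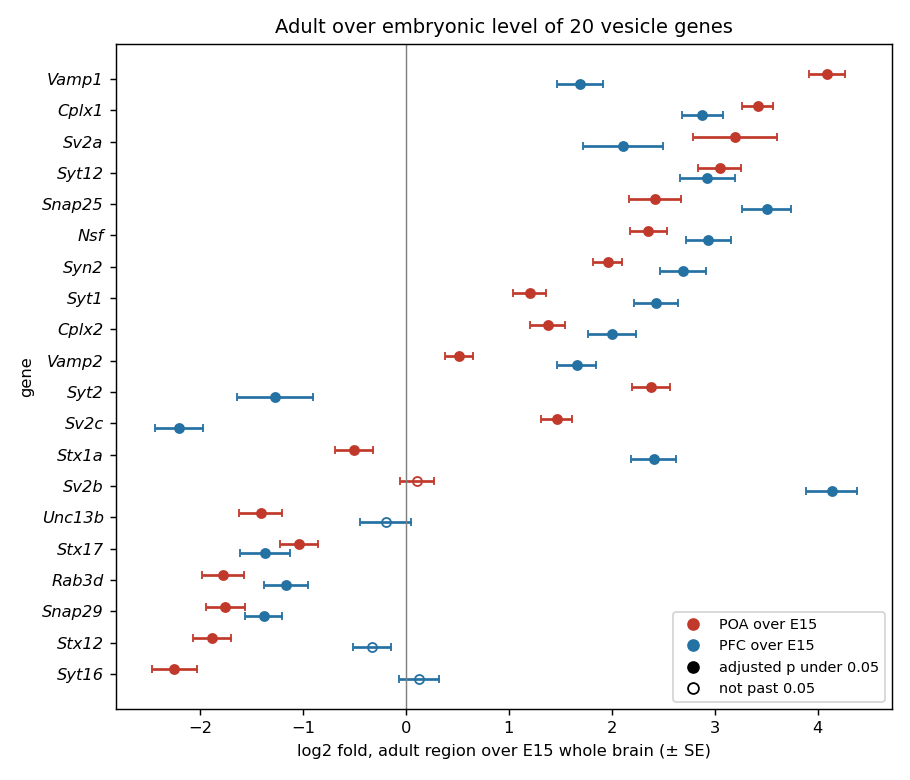
Log2 fold of the adult region over E15 whole brain (points, with bars of ± 1 SE) for 20 vesicle genes, red for POA and blue for PFC, filled where the adjusted p is under 0.05. Vamp1 in POA (4.09) and Sv2b in PFC (4.14) are farthest right, and Syt16 in POA (-2.25) and Sv2c in PFC (-2.20) farthest left.

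The paralogs that split the adult regions also differed from E15. Sv2b had 857, 1004, 943 and 705 in PFC, against 44.3 and 55.6 in E15, a 17.6-fold higher level (log2 4.14 ± 0.25, adjusted p = 3.29e-07, edgeR). In POA it had 63.5, 53.1, 66.7 and 59.9, against 51.0 and 61.4 in E15, with overlapping pools (log2 0.11 ± 0.17, adjusted p = 0.57). Stx1a had 510.1, 470.4, 478 and 471 in PFC, against 118 and 68.2 in E15 (log2 2.41 ± 0.22, adjusted p = 5.47e-06). In POA it had 81.5, 73.6, 69.7 and 67.3, against 136 and 76.1 in E15, where the pools overlapped. That POA difference passed (log2 -0.50 ± 0.18, adjusted p = 0.0342) but did not pass without the E15 F1i pool (log2 -0.13, adjusted p = 0.498), the POA F1i male pool (adjusted p = 0.0722) or the POA F1i female pool (adjusted p = 0.137), and was positive at the deepest shared SNP (0.14). Sv2c had 179, 184, 184 and 149 in POA, against 65.7 and 60.3 in E15 (log2 1.46 ± 0.15). In PFC, on fewer shared SNPs, it had 6.80, 9.72, 6.76 and 7.27, against 33.7 and 36.1 in E15 (log2 -2.20 ± 0.23, adjusted p = 1.55e-05). Syt2 had log2 2.38 ± 0.18 in POA over E15 and -1.27 ± 0.37 in PFC over E15, the second from 1.36 to 4.10 RPM and not passing without the E15 F1i pool (log2 -0.67, adjusted p = 0.246), with Syt2 again under the read minimum in PFC.

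Among genes of general membrane traffic, several were lower in the adult regions. Snap29, a SNAP of endosomes and autophagosomes, had 62.3, 66.4, 44.0 and 47.4 in POA, against 153 and 219 in E15 (log2 -1.75 ± 0.19, adjusted p = 2.44e-05, edgeR), and differed by -1.38 ± 0.18 in PFC. Stx17, a syntaxin of autophagosomes, differed by -1.04 ± 0.18 in POA and -1.37 ± 0.24 in PFC. Its shared SNPs were split in POA, 7 higher and 7 lower than in E15, while all 10 were lower in PFC. Rab3d, a Rab3 of secretory cells, differed by -1.77 ± 0.20 in POA and -1.16 ± 0.21 in PFC. In POA, Syt16 (-2.25 ± 0.22), Stx12 (-1.88 ± 0.18), Unc13b (-1.41 ± 0.21) and Stx5 (-1.39 ± 0.31) were also lower than in E15, with 0.13, -0.33, -0.19 and -0.53 in PFC. Stx5, read at 1 SNP, averaged 11.75 reads in POA and 64 in E15, so it entered through E15, where it is high, and it did not pass at the deepest shared SNP (edgeR adjusted p = 0.0523). In PFC, Syt9 (-1.16 ± 0.25) and Vamp3 (-1.13 ± 0.20) were lower than in E15, with -0.03 and 0.03 in POA. Exons of Snap29 overlap Pi4ka on the other strand, and the reads do not tell strands apart. Rab30 was lower in both (log2 -0.98 ± 0.22 in POA and -1.21 ± 0.28 in PFC), and in PFC it did not pass without the E15 F1r pool (adjusted p = 0.0793).

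The totals of the adult pools were also compared between the crosses and the sexes. No member passed between F1i and F1r (0.00923% of all genes did), and 3 members had an unadjusted p under 0.05, of 518 genes. The smallest was Unc13a, at 247 ± 112 in F1i and 305 ± 147 in F1r (SD, n = 4 each; log2 -0.29 ± 0.09, edgeR unadjusted p = 0.00653, adjusted p = 0.97). No member passed between male and female pools (0.0% of all genes did), with 5 members and 571 genes at an unadjusted p under 0.05. Snap25 was first there, at 1421 ± 564 in males and 1136 ± 544 in females (log2 0.38 ± 0.11, edgeR unadjusted p = 0.00443, adjusted p = 0.887). DESeq2 called no member in either comparison.

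The alleles of each member were then compared within pools, so that CAST and B6 reads came from the same RNA. Reads were aligned to mm9, which holds the B6 base. Whether alignment favoured that base was not tested, since the deposited counts do not hold the reads. A lean to B6 can therefore come from expression or from alignment, and these cannot be told apart here. The CAST share is the percent of informative reads with the CAST base. Most members were near balance: the CAST share, averaged over pools, was within 5 points of 50% for 49 of 66 members in POA, 41 of 59 in PFC and 46 of 76 in E15. The same held for 65.3%, 58.0% and 54.6% of all genes. The members' lowest, median and highest means were 35.2%, 49.8% and 57.9% in POA, 37.2%, 50.3% and 61.4% in PFC, and 19.5%, 49.5% and 73.2% in E15. Of 58 members tested, 11 leaned to CAST and 10 to B6 in POA (29.2% of all genes passed, 11.4% to CAST and 17.7% to B6), 9 and 11 in PFC (39.3%, 12.5% and 26.7%), and 2 and 16 in E15 (33.3%, 9.3% and 24.0%). These counts depended on the method: with DESeq2, 5 members passed in POA, 11 in PFC and 1 in E15, and without the POA F1r female pool 9 passed in POA, against 11 without the POA F1i female pool. With X-linked genes in the fit, 10 passed in E15. When each pool's allele ratio was centred on the median of all genes, which lay at log2 -0.05 in POA, -0.09 in PFC and -0.10 in E15, the counts were 17 and 7, 18 and 9, and 12 and 10.

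Syt13, a synaptotagmin that lacks calcium binding, had the lowest CAST share of any member in E15. The share was 47.2%, 48.7%, 45.7% and 48.6% in POA and 42.5%, 44.1%, 43.7% and 43.3% in PFC, against 22.4% in the F1i and 16.6% in the F1r pool of E15. Both E15 pools were far below all 8 adult pools, with the CAST allele inherited from the mother in one cross and from the father in the other. The log2 CAST over B6 ratio was -0.14 ± 0.04 in POA, -0.38 ± 0.04 in PFC and -2.06 ± 0.10 in E15. Adult minus E15 it differed by 1.79 ± 0.11 (adjusted p = 1.28e-14, edgeR), the farthest from 0 among the members. The spread behind the E15 error and this p-value came from the adult pools and does not measure that between embryonic pools. All 8 Syt13 SNPs read in E15 had CAST shares between 17.9% and 23.4%. At the exon 4 SNP printed above the CAST share was 46.7% in POA (655 reads, 95% interval 42.8% to 50.6%, Clopper-Pearson), 41.4% in PFC (828 reads, 38.0% to 44.9%) and 19.2% in E15 (281 reads, 14.8% to 24.3%). These intervals cover counting error alone. At the exon 2 SNP it was 45.5%, 44.9% and 22.6%, and at the exon 3 SNP 42.6%, 46.8% and 23.4%. In the parental strains at E15, the same SNPs gave 57 reads in CAST brain and 514 in B6 brain, a log2 ratio of -2.88 after scaling to library size, without replicates. The total Syt13 level was 3.50-fold higher in POA than in E15 (235, 216, 202 and 201 against 77.9 and 46.8) and 3.52-fold higher in PFC.

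**Figure D3:**
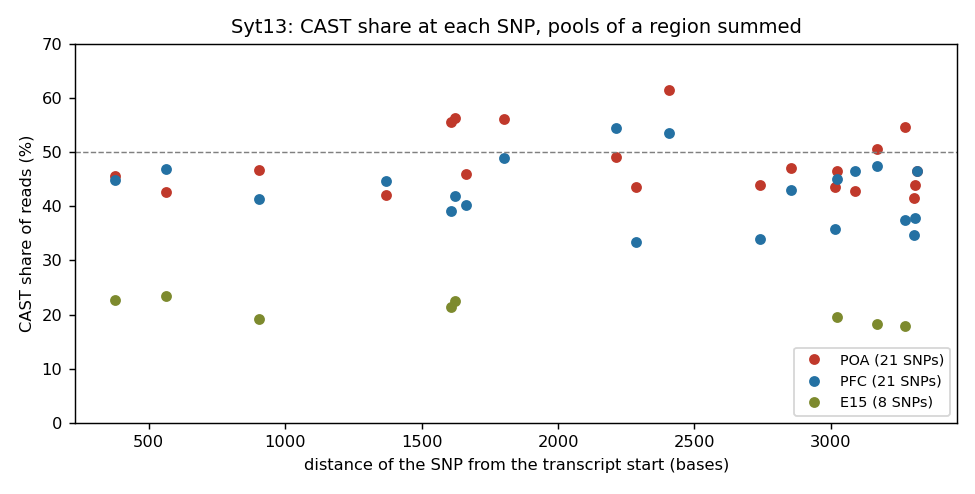
CAST share in percent at each Syt13 SNP, with the pools of a region summed, against the distance of the SNP from the transcript start in bases, for POA (21 SNPs), PFC (21 SNPs) and E15 (8 SNPs). Every POA and PFC point (lowest 33.5%) lies above the E15 points, which run from 17.9% to 23.4%.

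Some other members leaned in the same direction in each region, and others passed in adult tissue only. Rab3b, a Rab3 paralog of endocrine and peptide-releasing cells, had CAST shares of 43.7%, 46.4%, 44.6% and 43.8% in POA, 39.0%, 43.0%, 41.8% and 39.9% in PFC, and 44.4% and 43.0% in E15 (log2 -0.32 ± 0.05, -0.54 ± 0.05 and -0.37 ± 0.07). Every one of the 10 pools was on the B6 side. At its deepest SNP Rab3b did not pass in POA (-0.11, edgeR adjusted p = 0.453). Rims1 was on the B6 side in all 10 pools as well, with log2 -0.38 ± 0.09 in POA, -0.53 ± 0.07 in PFC and -0.48 ± 0.11 in E15. At its deepest SNP Rims1 did not pass in POA (-0.28, edgeR adjusted p = 0.397) or E15 (-0.14, edgeR adjusted p = 0.625), nor did it with DESeq2 in either, nor in POA without the F1r female pool (edgeR adjusted p = 0.0648). Syt4, a regulator of dense-core vesicle release, had -0.34 ± 0.06, -0.55 ± 0.06 and -0.18 ± 0.07. Sv2a, at its 1 SNP, was on the CAST side in all 10 pools, averaging 55.6% ± 1.66 in POA, 61.4% ± 4.71 in PFC (SD, n = 4 each) and 60.3% over the 2 E15 pools; its log2 ratio of 0.31 ± 0.09 in POA (adjusted p = 0.00647, edgeR) and 0.65 ± 0.12 in PFC (adjusted p = 3.15e-05) passed. In POA it did not pass with DESeq2 (adjusted p = 0.249), or without the F1i male or the F1r female pool (edgeR adjusted p = 0.0694 and 0.0697). Syt5, a synaptotagmin of dense-core vesicles, leaned to CAST in POA (log2 0.39 ± 0.05) and PFC (0.26 ± 0.04), Stxbp6, amisyn, did likewise (0.23 ± 0.08 and 0.36 ± 0.07), and Snap25 leaned to CAST in PFC (0.19 ± 0.04). At the deepest SNP, Syt5 did not pass in POA (0.19, edgeR adjusted p = 0.190), nor did Stxbp6 in PFC (0.13, edgeR adjusted p = 0.478).

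**Figure D4:**
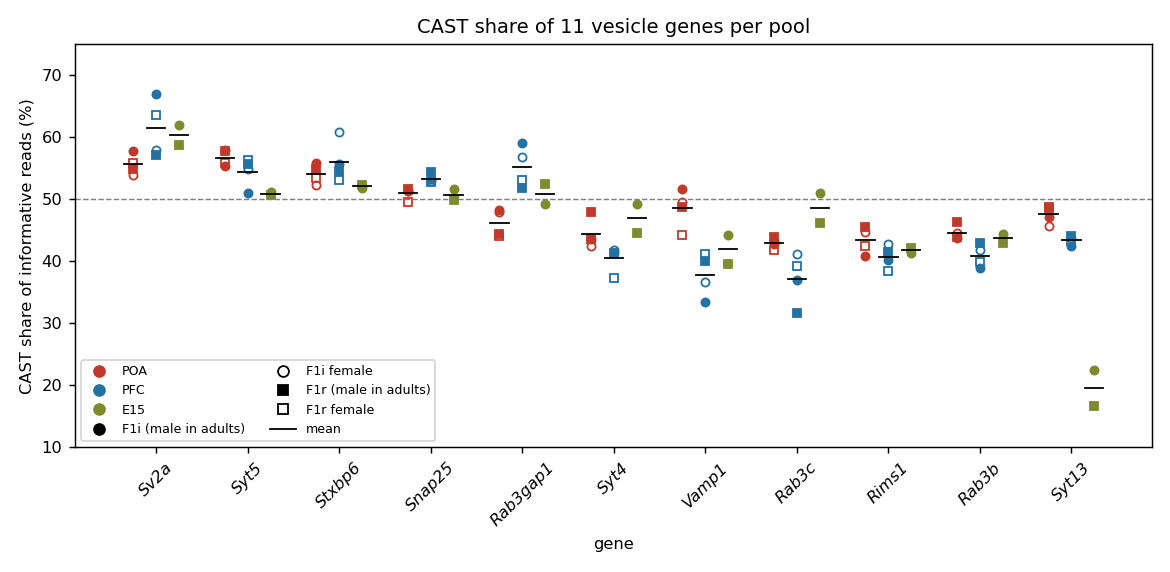
CAST share of informative reads in percent for 11 vesicle genes in each pool of POA (red), PFC (blue) and E15 (green), with circles for F1i, squares for F1r, open symbols for adult females, a bar at the mean and a dashed line at 50%. The adult Syt13 pools (42.5% to 48.7%) lie far above its E15 pools (16.6% and 22.4%), and the Vamp1 pools of POA (44.2% to 51.6%) lie above those of PFC (33.5% to 41.1%).

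The strain lean differed between POA and PFC for 9 of 58 members, 6 with more CAST in POA and 3 with less (13.0% of all genes passed, 8.13% more and 4.87% less). Vamp1 had 51.6%, 48.7%, 49.6% and 44.2% CAST reads in POA, against 33.5%, 40.1%, 36.6% and 41.1% in PFC, without overlap. The difference of log2 ratios was 0.61 ± 0.10 (adjusted p = 2.47e-05, edgeR), and 6 of 12 Vamp1 SNPs in POA were under 50%, against all 13 in PFC. At the deepest SNP alone it was 0.25 and did not pass (adjusted p = 0.544). At the printed exon 2 SNP, the CAST share was 50.3% in POA (541 reads, 46.0% to 54.6%) and 40.2% in PFC (102 reads, 30.6% to 50.4%). Rab3gap1, the catalytic subunit of the Rab3 GTPase-activating complex, had 48.2%, 44.3%, 48.0% and 44.1% in POA, against 59.1%, 51.7%, 56.8% and 53.1% in PFC. All POA pools were on the B6 side and all PFC pools on the CAST side (difference -0.52 ± 0.11, adjusted p = 0.000378). Rab31 (0.45 ± 0.09), Rab3c (0.35 ± 0.11), Syt13 (0.24 ± 0.06) and Rab3b (0.22 ± 0.07) also leaned more to CAST in POA, and Syt3 (-0.80 ± 0.24) and Nsf (-0.23 ± 0.06) less. Syt13, Rab3c and Nsf had the other sign at their deepest SNP (-0.29, -0.53 and 0.16), and Rab3gap1 and Rab31 did not pass there (edgeR adjusted p = 0.641 and 0.567). Leaving out a pool ended the Rab3c call for every POA pool and for the PFC F1i male and F1r male pools (0.21 without F1r male, edgeR adjusted p = 0.323). It ended the Rab3b call for the POA F1i male, F1r male and F1i female pools and the PFC F1i male and F1r female pools (edgeR adjusted p up to 0.215). It ended the Syt3 call for both POA female and both PFC male pools (edgeR adjusted p up to 0.199). With X-linked genes in the fit these 3 did not pass either, and with DESeq2 Vamp1 was the 1 member that passed.

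Adult minus E15, 12 of 58 members differed in strain lean, 8 toward CAST and 4 toward B6 in the adult (13.1% of all genes passed, 7.98% toward CAST and 5.14% toward B6). Toward CAST, Rab3d (0.79 ± 0.18) and Napa (0.59 ± 0.09) followed Syt13 among the genes that passed, before Stx3 (0.49), Rab3gap2 and Sv2b (0.39 each), Rab31 (0.34) and Syt5 (0.28). The alpha-SNAP gene Napa had 47.9%, 54.2%, 49.4% and 60.2% CAST reads in POA and 51.1%, 53.5%, 49.4% and 54.4% in PFC, against 42.4% and 42.6% in E15, with no adult pool as low as the E15 pools. For Rab3d the E15 log2 ratio was -0.54 over all SNPs of E15 and 0.51 over those listed in all 3 regions, on which the adult minus E15 difference was 0.04 (edgeR adjusted p = 0.942). The Rab3d difference also did not pass without the POA F1i female pool (0.66, edgeR adjusted p = 0.0613), Stx3 did not without that pool (edgeR adjusted p = 0.0687), and Syt4 did not without the POA F1i male, F1i female or F1r female pool (edgeR adjusted p = 0.0575, 0.09 and 0.0568). With DESeq2, Syt13 was the 1 member that passed. Toward B6 in the adult went Rab36 (-0.61 ± 0.17), Rab3c (-0.51 ± 0.13), Syt4 (-0.27 ± 0.08) and Syt1 (-0.22 ± 0.06). Rab3c was read on another transcript in E15 than in the adult regions. On SNPs listed in all 3 regions its difference was -0.31 and did not pass (edgeR adjusted p = 0.102). At the deepest SNP alone, Napa (0.42), Stx3 (0.37), Syt5 (0.31), Sv2b (0.08) and Rab3gap2 (0.03) did not pass. Their edgeR adjusted p was 0.0524, 0.431, 0.133, 0.886 and 0.966 in that order. Rab31 (-0.35) and Rab36 (0.47) had the other sign there. With all SNPs of the symbol, Stx3 did not pass either (edgeR adjusted p = 0.123). Syt1 had 48.3%, 52.4%, 48.4% and 51.8% in POA and 52.1%, 51.6%, 52.3% and 52.4% in PFC, against 56.5% and 53.5% in E15.

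For Napb and Cplx2, single SNPs spread more widely than the pools. The 57 Napb SNPs of POA ranged from 18.1% to 75.2% CAST, and its 60 SNPs of PFC from 14.6% to 85.2%, while the gene's pools lay between 51.1% and 52.9% in POA and between 48.0% and 51.7% in PFC. The 20 Cplx2 SNPs of PFC ranged from 18.9% to 62.3%, while the gene's 4 PFC pools lay between 48.5% and 51.0%. For Cplx2 the log2 ratio in PFC was 0.30 at the deepest SNP alone, on the other side of 0 from the sum.

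The parental strains at E15 were set beside the F1 alleles, with 1 sample per strain and therefore no test. Of 64 members with reads, 45 (70.3%) had the CAST over B6 ratio on the same side of 0 in the parents and in the hybrids, against 69.0% of 11601 genes. Across the 64 members the log2 ratios of parents and hybrids had a Pearson correlation of 0.82, against 0.68 over all genes. Syt13 (-2.88 in the parents and -2.05 in the hybrids) and Stxbp2 (-1.42 and -1.41) lay farthest from 0 in both. The members' correlation leans on such values, and it was not computed without them. Genes are not independent, and both ratios share SNPs and alignment. Vamp1 had log2 ratios of -0.42 in the parents and -0.47 in the hybrids, Sv2a 0.69 and 0.59, and Napa -0.10 and -0.44.

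Parent of origin was asked last, as the purpose of the reciprocal crosses. The maternal share is the percent of informative reads with the mother's base, which is CAST for F1i and B6 for F1r. It was within 5 points of 50% for 61 of 66 members in POA, 54 of 59 in PFC and 68 of 76 in E15, with medians of 49.9%, 49.6% and 50.2%. The same count was not made for all genes. The median log2 maternal over paternal ratio of the members tested was -0.0045 in POA, -0.0176 in PFC and 0.0143 in E15. Over all genes tested it was -0.0033, -0.0262 and 0.0141. The members' means ran from 35.2% to 57.8% in POA, 40.8% to 56.1% in PFC and 39.0% to 55.9% in E15, and the extremes were genes with few reads such as Rab3ip, with a mean of 26.8 reads per pool in POA.

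**Figure D5:**
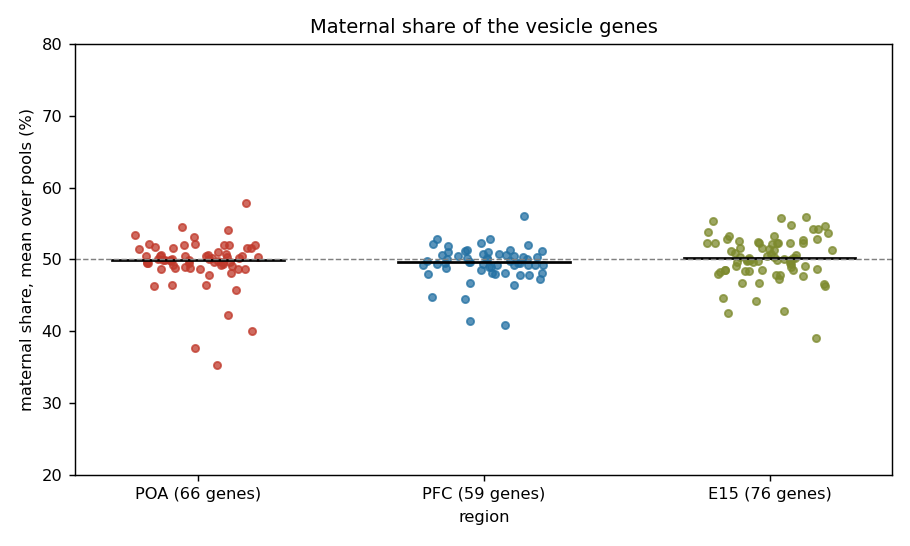
Maternal share in percent, averaged over the pools of a region, for each vesicle gene passing the read minimum in POA (66 genes), PFC (59) and E15 (76), with a bar at the median and a dashed line at 50%. The medians lie at 49.9%, 49.6% and 50.2%, and no gene is above 57.8% or below 35.2%.

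In POA 1 of 58 members passed the test of parental bias (1.61% of all genes did, 0.275% to the maternal and 1.34% to the paternal side). Napa had maternal shares of 47.9%, 45.8%, 49.4% and 39.8% in POA, all on the paternal side (log2 maternal over paternal -0.26 ± 0.07, adjusted p = 0.0257, edgeR). The call did not hold without the POA F1i male, F1i female or F1r female pool (adjusted p = 0.273, 0.292 and 0.95), nor with DESeq2, and the ratio was 0.05 at the deepest SNP. No member passed in PFC (0.55% of all genes), in E15 (2.21%, of which 1.33% maternal and 0.877% paternal), between POA and PFC (0.256%) or between males and females (0.0%). Unadjusted p-values under 0.05 numbered 5, 3, 5, 3 and 3 members in POA, PFC, E15 and the last 2 comparisons, of 671, 695, 1156, 601 and 465 genes. In PFC the smallest were Sv2c (log2 -0.52 ± 0.21, edgeR adjusted p = 0.638), Rab36 (-0.30 ± 0.13), Rab3gap1 (0.16 ± 0.08) and Syt5 (-0.09 ± 0.04). In E15 they were Stx12 (-0.19 ± 0.06, edgeR adjusted p = 0.121), Syt13 (0.27 ± 0.11), Unc13a (0.17 ± 0.07) and Stx7 (-0.14 ± 0.06). Fisher's exact test on the 2 E15 pools, which counts reads alone, called 5 of 76 members (10.2% of all genes, 6.08% to the maternal and 4.16% to the paternal side): Stx12 and Stx7 to the paternal side, and Unc13a, Syt4 and Stx17 to the maternal side. Between POA and PFC the smallest p belonged to Vamp1 (0.29 ± 0.10), Syt1 (-0.11 ± 0.05), Sv2c (0.47 ± 0.22) and Rab30 (-0.60 ± 0.32), all with an edgeR adjusted p of at least 0.466. Between males and females it belonged to Unc13c (-0.40 ± 0.17), Nsf (-0.11 ± 0.05), Unc13a (0.16 ± 0.07) and Rab3b (-0.14 ± 0.07), each with an edgeR adjusted p of 1.0.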

How the data were processed

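Polyadenylated RNA was sequenced for 36 cycles from random-hexamer cDNA, per the labels' protocols, and reads were aligned with Novoalign to mm9, per the submitters' processing notes. The deposited values are counts of reads with the CAST and with the B6 base at each SNP; technical replicates had been summed by the authors. Every listed SNP has at least 1 read in each pool of its region. Repeated listings of a position were dropped (1056 in POA, 911 in PFC, 2073 in E15). Each gene's reads are those of its best-covered transcript, added up over SNPs; SNPs less than 36 bases apart can count a read more than once. Of the members' SNPs, 678 in 50 members were placed on GENCODE transcripts of mm9, 68.0% in 3′ UTRs and 26.4% in coding sequence.

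edgeR 4.0.16 in R 4.3.3 fitted totals (TMM; region and cross, with sex in the adult comparisons) and allele counts (a term per pool, strain and parent of origin within region), for autosomal genes with a mean of 20 or more reads. The spread of E15 alleles came from the adult pools. Standard errors are the log2 value over the root of F. Alternatives used DESeq2 1.42.0, other SNP sums, filters and left-out pools; the fits were tested on simulated data. Members and lists were chosen with earlier results of these data known. Named genes are the core fusion machinery, up to 8 called members per direction and comparison, and for parental bias the called members or the 4 of smallest p. Of the members, 11 have exons that overlap a gene on the other strand, and Stx5 and Stx5a, or Stxbp3a and Stxbp3b, may share reads. Values of 1 member that passed some tests are counted but not reported here. Adult parental libraries were not used, since the values listed for POA and PFC are nearly identical.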

Additional observations from a re-analysis of the deposited data

Results flagged for a closer look

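Of 191 groups of 4 adult pools looked at, 14 had a pool whose gap to the nearest other pool exceeded Dixon's 95% critical share of the group's range; chance flags about 5% of groups. For CAST shares in POA these were Rab36 in the F1r female pool (48.91%, others 43.6% to 43.64%), Snap25 in the F1r female pool (49.47%, others 51.31% to 51.63%) and Vamp2 in the F1i male pool (46.33%, others 47.55% to 47.65%). For CAST shares in PFC they were Stxbp5 in the F1i female pool (48.81%), Syn2 in the F1r female pool (53.93%), Syt4 in the F1r female pool (37.29%) and Syt9 in the F1i male pool (70.21%). For RPM in PFC, the F1r male pool stood apart for Snap25 (2165), Syt1 (2120.0), Unc13b (27.22) and Stx12 (200.5, lower than the others), the F1i male pool for Rab36 (36.52) and Stx5a (1.804, lower), and the F1r female pool for Cplx2 (2397). The F1r male pool was also the PFC pool with the least oligodendrocyte signal; its part in these values was not tested.

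The log2 CAST over B6 ratio differed between POA and PFC, by a test of the difference itself (edgeR), for Vamp1 (0.6103), Rab31 (0.4477), Rab3c (0.3514), Syt13 (0.2391) and Rab3b (0.2198), higher in POA, and for Syt3 (-0.7985), Rab3gap1 (-0.5232) and Nsf (-0.2302), lower in POA. It differed between the adult regions and E15 for Syt13 (1.793), Rab3d (0.7947), Napa (0.5934), Stx3 (0.4912), Rab3gap2 (0.3938), Sv2b (0.388), Rab31 (0.3399) and Syt5 (0.2752), higher in the adult, and for Rab36 (-0.6116), Rab3c (-0.5095), Syt4 (-0.2672) and Syt1 (-0.2247), lower in the adult. On SNPs listed in all 3 regions the Rab3d difference was 0.04 (edgeR adjusted p = 0.942) and the Rab3c difference -0.31 (edgeR adjusted p = 0.102). At the deepest SNP alone, the adult minus E15 differences of Napa, Stx3, Syt5, Sv2b and Rab3gap2 did not pass.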

How the results depend on the processing

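Counts of members with different totals held within 1.5 times under every alternative run: DESeq2 gave 43, 43 and 39 for POA over PFC, POA over E15 and PFC over E15, and leaving out a pool gave 39 to 44, 42 to 47 and 35 to 41. In POA over E15, Napa did not pass without the POA F1r male or the E15 F1r pool. At the deepest shared SNP alone, Vamp2 (-0.44), Cplx2 (-1.17), Sv2b (-1.81) and Stx1a (0.14) had the other sign there.

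Strain counts depended more on the method; the cause was not tested. With DESeq2, 5 members passed in POA, 11 in PFC, 1 in E15, 1 in POA minus PFC and 1 in adult minus E15. The deepest SNP alone gave 10 in POA, and X-linked genes in the fit gave 10 in E15 and 6 in adult minus E15. Leaving out a pool gave 9 to 21 in POA (11 without F1i female, 9 without F1r female), 17 to 21 in PFC, 15 to 18 in E15, 7 to 11 in POA minus PFC and 9 to 13 in adult minus E15. Using SNPs listed in all 3 regions, chosen after seeing the data, gave 18, 23, 18, 9 and 11.

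At the deepest SNP the strain log2 ratio had the other sign in POA for Rab3gap1 (0.29), Vamp2 (0.0880), Cplx2 (0.00708) and Syn2 (-0.30), in PFC for Stx16 (-0.37), Nsf (-0.20), Vamp2 (0.0850) and Cplx2 (0.30), and in E15 for Cplx2 (0.21), Nsf (-0.47) and Vamp1 (1.96e-16, that is balanced). It did so in POA minus PFC for Rab3c (-0.53), Syt13 (-0.29) and Nsf (0.16), and in adult minus E15 for Rab31 (-0.35) and Rab36 (0.47). Centring gave Cplx2 0.0771 in PFC, and SNPs listed in all 3 regions gave Rab3d 0.51 in E15.

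For parental bias in POA, DESeq2, the deepest SNP (Napa 0.0473) and X-linked genes in the fit gave 0 members, and leaving out a pool 0 to 1. In E15 Fisher's exact test gave 5. For the replicate numbers of the labels, no paired analysis was possible because the deposited columns sum technical replicates and carry no such number. POA and PFC pools could be matched by cross and sex, and a fit with those pairs as a block gave 44 members, as many as without it. Depth limits genes of few reads per pool.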
